A study of Mus musculus with 2 samples.

Results

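The cytochrome P450 genes of families 1 to 4 were described in single kidney cells of Kif3aΔTub and WT mice. Members were all genes whose symbol is Cyp, a family number of 1 to 4, subfamily letters and a final number. The annotation behind the count tables held 76 such genes among 31053, of which 32 had at least 20 UMIs over both libraries and are described here, 15 had fewer and 29 had none. A UMI is a molecular tag that marks 1 captured RNA molecule. The last genes inside that limit were Cyp2c69, Cyp4f15 and Cyp2j7 with 31, 28 and 23 UMIs, and the first outside it were Cyp2j8, Cyp4x1 and Cyp4f14 with 12, 11 and 8. By family, 2 of 3 genes of family 1, 19 of 49 of family 2, 1 of 7 of family 3 and 10 of 17 of family 4 passed. Genes whose symbols end in a letter, such as Cyp4a12a, fall outside the rule.

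Cytochromes P450 are haem enzymes of the endoplasmic reticulum that insert 1 oxygen atom into a substrate and take their electrons from the reductase Por, helped by cytochrome b5. Families 1 to 3 act mainly on drugs, pollutants, steroids and fatty acids, and family 4 mainly on the far end of fatty acid chains. In kidney the Cyp2c and Cyp2j enzymes are known for turning arachidonic acid into epoxides and the Cyp4a enzymes for hydroxylating it, and both kinds of product act on vessel tone and salt transport. Many members lie in arrays of related genes. On GRCm38 the Cyp2j array runs along chromosome 4 from Cyp2j13 (chr4:96027534-96077546) to Cyp2j5 (chr4:96628773-96664154), and further along the same chromosome the described genes of the Cyp4a array run from Cyp4a14 (chr4:115486200-115496142) through Cyp4a10 and Cyp4a31 to Cyp4b1 (chr4:115624725-115647723).

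The data are 1 Kif3aΔTub library and 1 WT library, each from kidney cells of mice aged 5 weeks, taken up in droplets after digestion with a protease in the cold and removal of dead cells. Kif3a encodes a motor subunit needed to build the primary cilium, and the labels give the Kif3aΔTub genotype as a knockout but not the promoter that drives the deletion, the sex or the number of animals. After filtering, 7066 Kif3aΔTub and 4317 WT cells remained with medians of 7799 and 7771 UMIs. With 1 library per genotype no difference between genotypes has a replicate check, no p-value was computed, and the 95% intervals given account for counting error alone.

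Kif3a RNA stood at 12.2 CPM in all Kif3aΔTub cells and 10.3 CPM in all WT cells, where CPM are UMIs per 1e6 UMIs of the cells named. In proximal tubule-like cells it stood at 15.8 CPM in Kif3aΔTub and 8.44 CPM in WT, so the transcript was not lower in the library labelled Kif3aΔTub. Tags at the end of a transcript can lie outside a deleted exon, and the level therefore checks neither label. Mitochondrial UMIs made up a median of 7.54% of a Kif3aΔTub cell and 26.8% of a WT cell, and 20 cell barcodes occurred in both libraries. The Y-linked transcripts Ddx3y, Uty, Kdm5d and Eif2s3y were present in both libraries and Xist, the RNA of the inactive X, had 2 UMIs in Kif3aΔTub and 1 in WT. Cell classes were named from marker genes that are not members, and members were left out of the clustering. Proximal tubule-like cells were placed as early or late, along the flow of filtrate, by sub-clusters and their sums of early and late markers, which gave 453 Kif3aΔTub and 1705 WT early cells and 572 Kif3aΔTub and 1258 WT late cells. All 12 proximal tubule markers had at least 20 UMIs in both libraries.

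The 2 late groups were not alike in their markers. The 14 late markers summed to 734 CPM in Kif3aΔTub late cells and 2745 CPM in WT late cells. Of these sums, Dnase1, which was not used to place cells, gave 93.7 and 717 CPM. Early markers summed to 5135 CPM in Kif3aΔTub early cells and 10937 CPM in WT early cells. For that reason the main members are also given below at matched shares of late markers per cell. Most Kif3aΔTub proximal tubule-like cells came from cluster 0 (902 cells), and WT cells from clusters 21, 24, 1, 29 and 27 (915, 591, 513, 503 and 427 cells). Thick ascending limb-like cells came mainly from cluster 3 in Kif3aΔTub (546 cells) and cluster 28 in WT (325 cells).

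Promoter windows of 6 members are shown because these genes give the main contrasts of position and cell type below: neighbours with different cell patterns (Cyp2j5 and Cyp2j6), genes of the early and the late tubule (Cyp2d26 and Cyp2e1) and a near-identical pair (Cyp2a4 and Cyp2a5). Each runs 5′ to 3′ on the strand of its gene from 250 bases before the start of transcription to 50 after it and comes from RefSeq on GRCm38.p6. The windows are chr4:96664070-96664369 for Cyp2j5, chr4:96553602-96553901 for Cyp2j6 and chr15:82794196-82794495 for Cyp2d26, all on the minus strand. Those of Cyp2e1, chr7:140763569-140763868, Cyp2a4, chr7:26306942-26307241, and Cyp2a5, chr7:26835089-26835388, are on the plus strand. Capitals mark matches, on either strand, to TATAAA, the TATA box, or GTTAAT, part of the site of the factor HNF1.
Cyp2j5: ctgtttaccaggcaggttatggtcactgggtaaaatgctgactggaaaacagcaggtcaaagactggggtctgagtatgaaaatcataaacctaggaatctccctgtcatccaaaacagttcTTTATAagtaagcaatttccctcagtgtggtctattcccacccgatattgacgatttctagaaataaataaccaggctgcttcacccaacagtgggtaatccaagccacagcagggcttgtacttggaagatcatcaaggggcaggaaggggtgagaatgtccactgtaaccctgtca
Cyp2j6: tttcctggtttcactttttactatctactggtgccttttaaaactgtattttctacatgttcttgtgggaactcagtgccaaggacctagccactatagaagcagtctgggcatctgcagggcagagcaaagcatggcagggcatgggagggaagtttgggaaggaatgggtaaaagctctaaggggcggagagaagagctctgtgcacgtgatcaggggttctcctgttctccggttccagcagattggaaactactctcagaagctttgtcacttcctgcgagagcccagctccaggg
Cyp2d26: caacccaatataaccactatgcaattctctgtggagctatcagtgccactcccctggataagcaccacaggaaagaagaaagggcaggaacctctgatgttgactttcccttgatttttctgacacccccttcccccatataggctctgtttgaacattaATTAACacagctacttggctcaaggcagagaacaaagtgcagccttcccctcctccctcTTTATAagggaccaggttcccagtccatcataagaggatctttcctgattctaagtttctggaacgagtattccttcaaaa
Cyp2e1: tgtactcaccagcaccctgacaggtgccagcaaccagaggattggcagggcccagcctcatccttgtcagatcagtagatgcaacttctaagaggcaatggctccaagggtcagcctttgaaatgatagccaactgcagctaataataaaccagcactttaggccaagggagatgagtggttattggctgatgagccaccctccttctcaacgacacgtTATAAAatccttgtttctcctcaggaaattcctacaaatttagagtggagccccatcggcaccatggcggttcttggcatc
Cyp2a4: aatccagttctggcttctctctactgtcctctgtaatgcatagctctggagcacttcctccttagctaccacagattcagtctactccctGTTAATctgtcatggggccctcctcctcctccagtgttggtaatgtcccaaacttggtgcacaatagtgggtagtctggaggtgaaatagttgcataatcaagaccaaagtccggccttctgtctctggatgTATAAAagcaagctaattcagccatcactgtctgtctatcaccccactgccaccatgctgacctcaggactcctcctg
Cyp2a5: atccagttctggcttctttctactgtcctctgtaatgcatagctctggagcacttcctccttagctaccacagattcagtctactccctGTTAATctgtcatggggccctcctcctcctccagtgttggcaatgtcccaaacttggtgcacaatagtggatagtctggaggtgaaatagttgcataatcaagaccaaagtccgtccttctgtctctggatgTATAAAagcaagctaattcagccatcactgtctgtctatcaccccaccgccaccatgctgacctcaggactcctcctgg

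TATAAA occurred in 8 of the 23 described members that have a window, against 13.6% of 32851 promoters. Its first base lay at -31 in Cyp2d26 and Cyp2e1, at -28 in Cyp2a4, at -29 in Cyp2a5 and at -128 in Cyp2j5, counted from the start of transcription, and Cyp2j6 held none. GTTAAT occurred in 4 members (Cyp2a4, Cyp2a5, Cyp2c69 and Cyp2d26), against 7.10% of promoters. CAAAGTCCA, a site type of HNF4, was found in Cyp2c69 (0.475% of promoters), while TNGCGTG, the element of the aryl hydrocarbon receptor, and the direct repeat of nuclear receptors that PPAR-alpha binds were in none of the 23 windows (5.07% and 0.0396% of promoters). Cyp4a10, Cyp4a14 and Cyp4a31 are not among these 23. Both strands were searched, none of these motifs contains another, and a match is a run of letters and not a bound site. Shifted by 1 base, the windows of Cyp2a4 and Cyp2a5 differed at 5 of 299 bases.

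Most of the family's RNA lay in the proximal tubule. All members together reached 756 CPM (735 to 778) in Kif3aΔTub early cells against 1161 (1146 to 1177) in WT early cells, and 1975 (1934 to 2017) in Kif3aΔTub late cells against 2576 (2548 to 2605) in WT late cells. The log2 ratio of Kif3aΔTub to WT was -0.62 (-0.66 to -0.57) in early and -0.38 (-0.42 to -0.35) in late cells, and the late value was 0.032 when cells with 25% or more mitochondrial UMIs were left out. Over all kept cells the sum was 311 CPM in Kif3aΔTub and 1331 CPM in WT, where proximal tubule-like cells were 1054 of the Kif3aΔTub cells and 2963 of the WT cells. In the other named tubule classes and in endothelium-like cells the sum was lower, for example 118 CPM in Kif3aΔTub and 148 CPM in WT thick ascending limb-like cells and 456 and 425 CPM in endothelium-like cells.

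**Figure D1:**
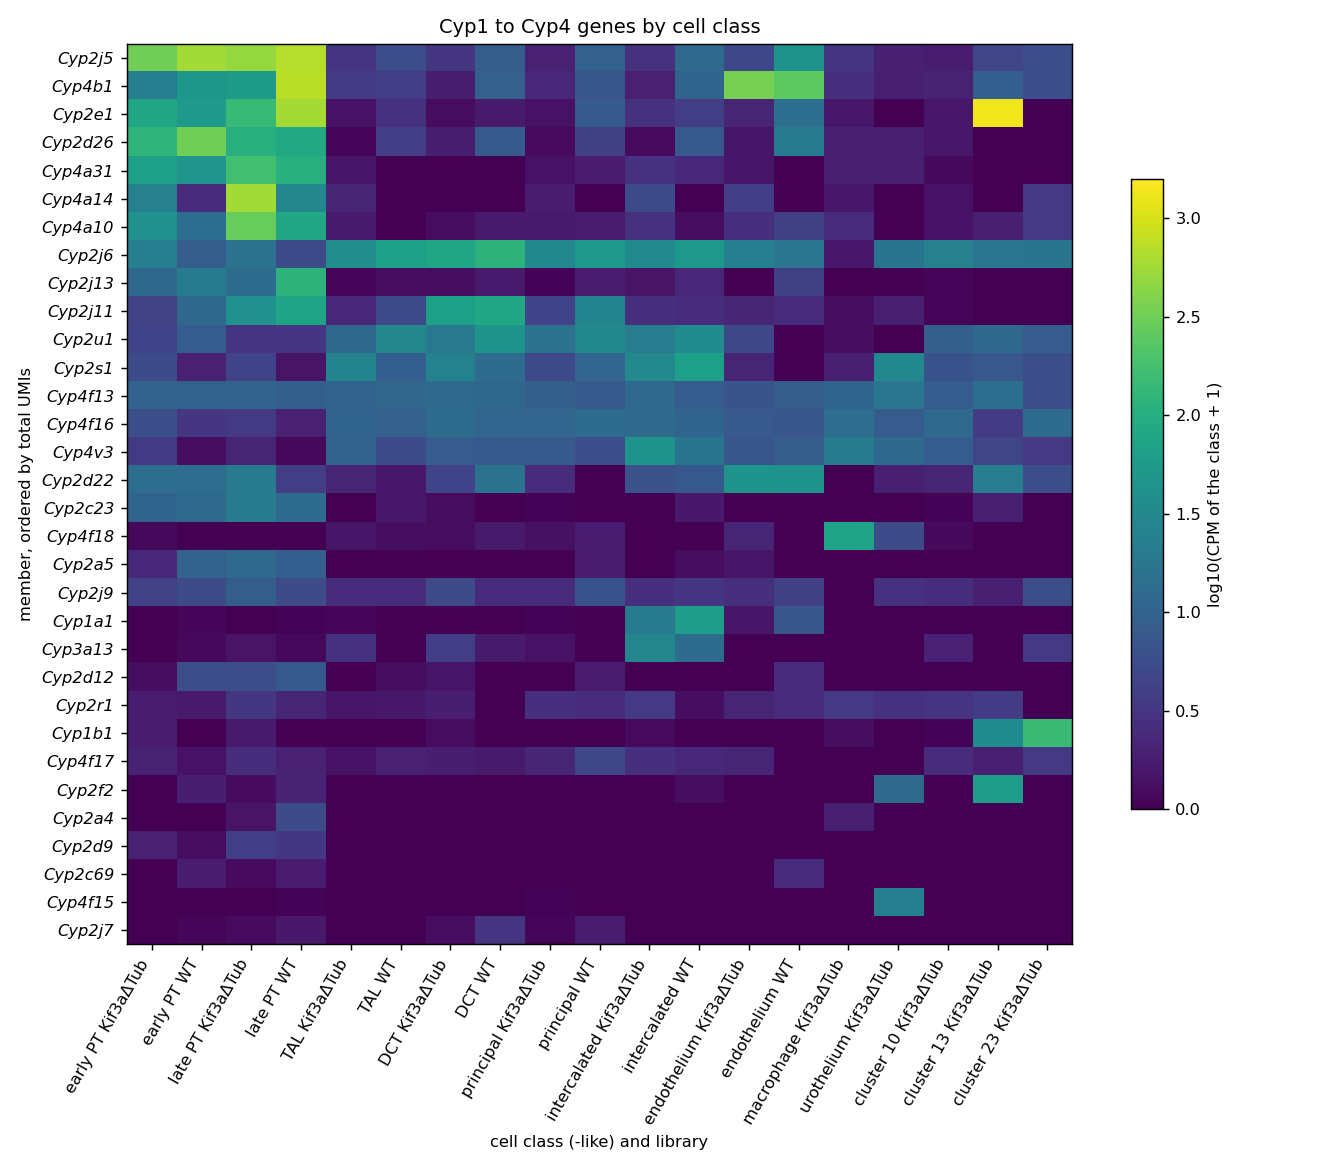
Level of each of the 32 described members (rows, ordered by UMIs over both libraries) in each cell class and library (columns, Kif3aΔTub left of WT), as log10 of CPM of the class plus 1. The upper left block is the proximal tubule, where Cyp2j5 stood at 316 to 699 CPM, while Cyp2j6, Cyp2u1 and Cyp2s1 run through the distal classes, Cyp4f18 marks macrophage-like cells at 68.9 CPM and Cyp2e1 peaks in cluster 13 at 1351 CPM. WT is left out where it gave 5 cells or fewer.

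Members went both ways between the genotypes within each part of the proximal tubule. A member is called here where it had at least 20 UMIs over both libraries in the class, differed at least 2-fold and had an interval without 1. In early cells 20 members had enough UMIs, of which 6 were higher in Kif3aΔTub (Cyp4a14, Cyp4a10, Cyp2j6, Cyp2s1, Cyp4f16 and Cyp4v3), against 14.6% of all 11523 genes tested, and 6 were lower (Cyp4b1, Cyp2d26, Cyp2j11, Cyp2u1, Cyp2a5 and Cyp2d12), against 3.08% of all genes. In late cells 22 had enough, of which 6 were higher (Cyp4a14, Cyp4a10, Cyp2j6, Cyp2s1, Cyp4f16 and Cyp2d22), against 10.6% of 10850 genes, and 4 were lower (Cyp4b1, Cyp2e1, Cyp2j13 and Cyp2a4), against 4.67%. The median log2 ratio of the members was -0.14 in early and 0.46 in late cells, beside 0.34 and 0.14 over all genes with that many UMIs. A member that reached 20 UMIs only through 1 library had to differ, so these counts describe the members that passed and not the family.

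**Figure D2:**
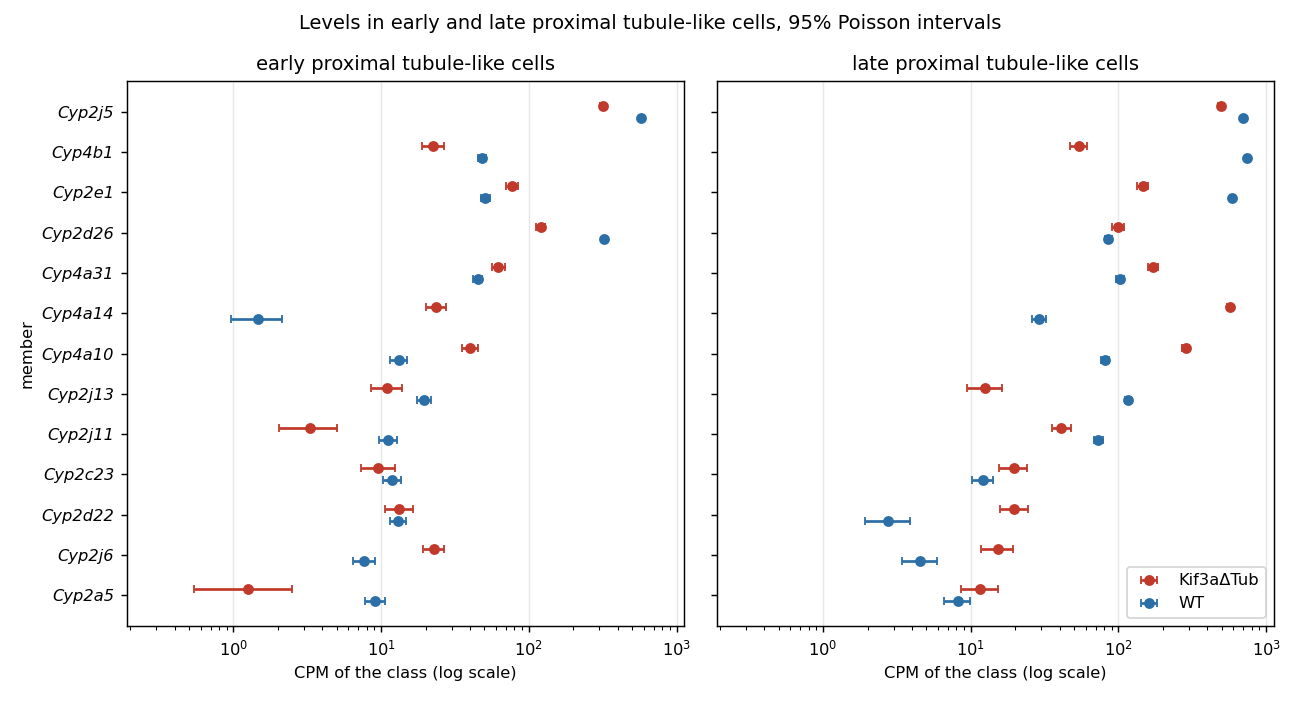
Level in CPM of the class, on a log axis, of the 12 members with most UMIs in the proximal tubule and of Cyp2a5 (rows), in early (left) and late (right) proximal tubule-like cells. Points are library sums, bars 95% Poisson intervals, red Kif3aΔTub and blue WT, with Cyp4a14 at 568 CPM in Kif3aΔTub and 29.1 CPM in WT late cells and Cyp4b1 at 53.8 and 743 CPM.

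The arachidonic acid epoxygenases were led by Cyp2j5, an enzyme of mouse kidney and the member with most UMIs. It stood at 316 CPM (302 to 330) in Kif3aΔTub early cells and 573 (562 to 584) in WT early cells, and at 492 (471 to 513) in Kif3aΔTub late cells and 699 (684 to 714) in WT late cells. Its log2 ratios were -0.86 (-0.93 to -0.79) and -0.51 (-0.58 to -0.44). Cyp2j5 was thus lower in Kif3aΔTub by less than 2-fold in both parts and made up the greater part of the early family RNA in neither library, at 41.8% of family UMIs in Kif3aΔTub and 49.3% in WT. The early ratio passed 2-fold when mitochondrial UMIs were left out of the totals (-1.15) or ratios were centred on the median gene (-1.18), and the late ratio was 0.06 in cells under 25% mitochondrial UMIs. Cyp2c23, another epoxygenase, stood at 9.60 CPM in Kif3aΔTub and 11.9 CPM in WT early cells and at 19.5 and 12.04 CPM in late cells, with log2 ratios of -0.30 (-0.74 to 0.11) and 0.70 (0.30 to 1.09).

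The other Cyp2j genes split by class and genotype. Cyp2j13 was a late gene in WT but not in Kif3aΔTub: it stood at 12.5 CPM (9.40 to 16.2) in Kif3aΔTub late cells and 116 (110 to 122) in WT late cells, a log2 ratio of -3.20 (-3.63 to -2.83), and at 11.02 and 19.6 CPM in early cells. Cyp2j11 was a late gene in both libraries, at 41.1 CPM in Kif3aΔTub and 73.1 CPM in WT late cells, against 3.31 and 11.2 CPM in early cells. Its late log2 ratio of -0.83 (-1.07 to -0.60) was -1.08 with doublets kept and -0.15 in the band of highest late share. Its early log2 ratio of -1.73 (-2.48 to -1.11) was -0.25 in cells with at least 1000 UMIs and -0.61 with doublets kept. Cyp2j6 ran the other way from Cyp2j5, its neighbour in the array with Cyp2j9 in between. It stood at 22.8 CPM in Kif3aΔTub and 7.72 CPM in WT early cells and at 15.2 and 4.56 CPM in late cells. Its log2 ratios were 1.56 (1.22 to 1.91) and 1.74 (1.20 to 2.28). In the early Kif3aΔTub sub-clusters Cyp2j6 stood at 32.2, 17.2 and 14.3 CPM, against 0 to 12.2 CPM in early WT ones. Spill of RNA from other classes into proximal tubule-like cells was not estimated. Cyp2j9 stayed between 3.31 and 7.72 CPM in the 4 groups. Cyp2j7 had at most 8 UMIs in any of them.

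Among the fatty acid hydroxylases, Cyp4a14 gave the largest late log2 ratio among members with at least 20 UMIs. It stood at 568 CPM (546 to 591) in Kif3aΔTub late cells and 29.1 (26.1 to 32.2) in WT late cells, and at 23.6 (20.0 to 27.7) in Kif3aΔTub early cells and 1.47 (0.967 to 2.14) in WT early cells. The log2 ratios were 4.29 (4.13 to 4.45) and 3.99 (3.41 to 4.66), or 19.5-fold and 15.8-fold. The early ratio was higher in other settings, at 6.01 at clustering resolution 2, 6.11 in cells under 25% mitochondrial UMIs and 6.04 in cells with at least 1000 UMIs. Its share of family UMIs in late cells was 28.8% in Kif3aΔTub, the top member there, and 1.13% in WT. The neighbouring Cyp4a10 stood at 286 and 80.9 CPM in Kif3aΔTub and WT late cells and at 40.1 and 13.2 CPM in early cells, with log2 ratios of 1.82 (1.70 to 1.94) and 1.61 (1.35 to 1.87), the early one being 2.51 in cells with at least 1000 UMIs. Cyp4a31, next in the array, differed less, at 171 and 102 CPM in late and 62.2 and 45.1 CPM in early cells, with log2 ratios of 0.74 (0.61 to 0.87) and 0.47 (0.29 to 0.64). No 90-base stretch at the ends of Cyp4a14 or Cyp4a10 transcripts occurred in another gene, while 5.43% of those of Cyp4a31 occurred in Cyp4a32 or Cyp4a10, so reads of Cyp4a31 are partly uncertain. The same holds for Cyp2d26, with 6.08% of windows shared with Cyp2d22 and Cyp2d40, for Cyp2e1 with 5.67%, for Cyp2d22 with 3.04% and for Cyp4b1 with 2.80%.

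Cyp4b1, at the end of the same array, went the opposite way. This enzyme hydroxylates fatty acids, activates some plant toxins and is known to respond to androgen in mouse kidney. Cyp4b1 stood at 53.8 CPM (47.2 to 61.1) in Kif3aΔTub late cells and 743 (728 to 759) in WT late cells, a log2 ratio of -3.79 (-3.98 to -3.60), or 13.8-fold lower. In early cells it stood at 22.5 and 48.4 CPM, a log2 ratio of -1.10 (-1.37 to -0.85) that was -0.83 in cells with at least 1000 UMIs and -0.85 at clustering resolution 2. It was the leading member of WT late cells with 28.9% of family UMIs, against 2.72% in Kif3aΔTub.

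Cyp2e1, which oxidises ethanol and small solvents, was another late gene of WT. It stood at 145 CPM (134 to 157) in Kif3aΔTub late cells and 584 (571 to 598) in WT late cells, a log2 ratio of -2.01 (-2.13 to -1.89). In early cells it was the higher one in Kif3aΔTub, at 77.3 CPM (70.6 to 84.4) against 50.8 (47.6 to 54.2) in WT, a log2 ratio of 0.61 (0.44 to 0.76). Late cells thus carried 3.52 log2 units more than early cells in WT and 0.91 more in Kif3aΔTub.

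Of the Cyp2d genes, which act on many drugs, Cyp2d26 was an early gene. It stood at 120 CPM (112 to 129) in Kif3aΔTub early cells and 324 (316 to 332) in WT early cells, a log2 ratio of -1.43 (-1.54 to -1.32), and at 99.6 and 85.5 CPM in late cells, a ratio of 0.22 (0.06 to 0.38) that was 1.13 in cells under 25% mitochondrial UMIs. The difference between early and late cells was 1.92 log2 units in WT and 0.27 in Kif3aΔTub. Cyp2d22 was level in early cells, at 13.2 CPM in Kif3aΔTub and 13.05 CPM in WT, while in late cells it stood at 19.7 and 2.77 CPM, a log2 ratio of 2.82 (2.25 to 3.45) that was 4.28 in cells under 25% mitochondrial UMIs. Cyp2d12 had 2 UMIs in Kif3aΔTub and 86 in WT early cells and 21 and 81 UMIs in late cells, with an early log2 ratio of -3.58 (-6.96 to -2.00) that was -0.9998 in cells under 25% mitochondrial UMIs. Cyp2d9, known in mouse as a testosterone hydroxylase, had 13 UMIs in Kif3aΔTub and 28 in WT late cells, and 15.3% of its end windows were shared with other genes.

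The steroid and coumarin hydroxylases Cyp2a4 and Cyp2a5 were low. Cyp2a4, a testosterone hydroxylase of the mouse, had 2 UMIs in Kif3aΔTub and 56 in WT late cells (0.454 and 4.56 CPM, log2 ratio -3.02, -6.41 to -1.41) and none in early cells of either library, where 3 UMIs would be 0.472 CPM in Kif3aΔTub and 0.163 in WT. Cyp2a5 stood at 1.26 and 9.08 CPM in Kif3aΔTub and WT early cells, a log2 ratio of -2.77 (-4.09 to -1.84) that was -1.28 at clustering resolution 2, and at 11.6 and 8.14 CPM in late cells. Of their end windows 10.5% and 10.1% were shared, mainly within the pair, so their reads are partly uncertain.

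Few other members reached the proximal tubule in number. Cyp4f16 stood at 4.88 and 2.23 CPM in Kif3aΔTub and WT early cells, a log2 ratio of 1.14 (0.41 to 1.84) that fell under 2-fold in 8 of 9 alternatives. Cyp2u1, which hydroxylates long-chain fatty acids, stood at 3.46 and 7.50 CPM there, a log2 ratio of -1.09 (-1.84 to -0.46) that was -0.91 in cells under 25% mitochondrial UMIs. Cyp2s1 had 29 and 18 UMIs and Cyp4v3 16 and 6, with log2 ratios of 2.21 and 2.88. Of the 29 Cyp2s1 UMIs, 21 lay in 1 Kif3aΔTub sub-cluster of 145 cells. Cyp4f13 was level, at 9.29 and 8.81 CPM in early and 9.53 and 8.22 CPM in late cells. Cyp2r1, which hydroxylates vitamin D in the liver, had 10 and 14 UMIs in late cells.

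The gradient along the tubule was compared within each library, so that both parts come from 1 library. The largest late Kif3aΔTub sub-clusters (260 and 233 cells) had late over early marker ratios of 0.092 and 0.101, near the limit of 0.08. The largest late WT sub-clusters (586 and 491 cells) stood at 0.489 and 0.448. Smaller late sub-clusters stood at 0.191 and 7.47 in Kif3aΔTub (56 and 23 cells) and 0.149 in WT (181 cells). The part of this unequal spacing in the gradients below was not tested. In Kif3aΔTub 9 of 20 members with enough UMIs were at least 2-fold higher in late than in early cells, against 2.86% of genes, and 0 were lower, against 5.3% of genes. In WT 9 of 25 were higher, against 5.89%, and 4 were lower (Cyp2d26, Cyp2u1, Cyp4f16 and Cyp2d22), against 7.02%. Both lists of higher genes held Cyp4b1, Cyp4a31, Cyp4a14, Cyp4a10 and Cyp2j11. The late excess of Cyp4a14 was 4.58 log2 units (4.35 to 4.84) in Kif3aΔTub and 4.28 (3.74 to 4.93) in WT, and that of Cyp4a10 2.83 (2.64 to 3.03) and 2.62 (2.42 to 2.83), so that these intervals overlapped between genotypes. That of Cyp4b1 was 1.25 (0.95 to 1.57) in Kif3aΔTub and 3.94 (3.84 to 4.04) in WT, and that of Cyp2j13 0.18 (-0.36 to 0.71) and 2.57 (2.40 to 2.74), so that theirs did not.

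At the lowest and highest shares of late markers the main members had the same directions as in early and late cells. Cells with at least 20 UMIs of early and late markers were put in 3 bands by the late share of those UMIs. The late markers here left out Dnase1 and those that depend on sex hormones (Slc7a13, Slc7a12, Acsm3, Slco1a1 and Slc22a30). This alternative was chosen with the data already in view and kept 686 of 1054 Kif3aΔTub and 2304 of 2963 WT proximal tubule-like cells. The markers behind the share themselves differed between the libraries. In early cells Gatm stood at 781 CPM in Kif3aΔTub and 3065 CPM in WT, and Slc6a18 at 21.4 and 5.16 CPM. In late cells Atp11a stood at 89.9 and 410 CPM. An equal share is therefore not known to be an equal position along the tubule. In the band of 0.15 and over, with 103 Kif3aΔTub and 575 WT cells, Cyp4a14 stood at 750 CPM in Kif3aΔTub and 35.4 CPM in WT, Cyp4b1 at 72.7 and 993 CPM and Cyp2e1 at 156 and 802 CPM. In the middle band, with 241 and 263 cells, Cyp4a14 stood at 333 and 20.6 CPM, Cyp4b1 at 38.3 and 489 CPM and Cyp2e1 at 116 and 338 CPM. In the band under 0.03, with 342 and 1466 cells, Cyp2d26 stood at 147 and 318 CPM. It stood at 86.9 and 167 CPM in the middle band and at 67.2 and 43.4 CPM in the highest band. Cyp4a14 and Cyp4b1 therefore differed in opposite directions in every band, and Cyp2e1 and Cyp2d26 changed sign between the lowest and the highest one.

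**Figure D3:**
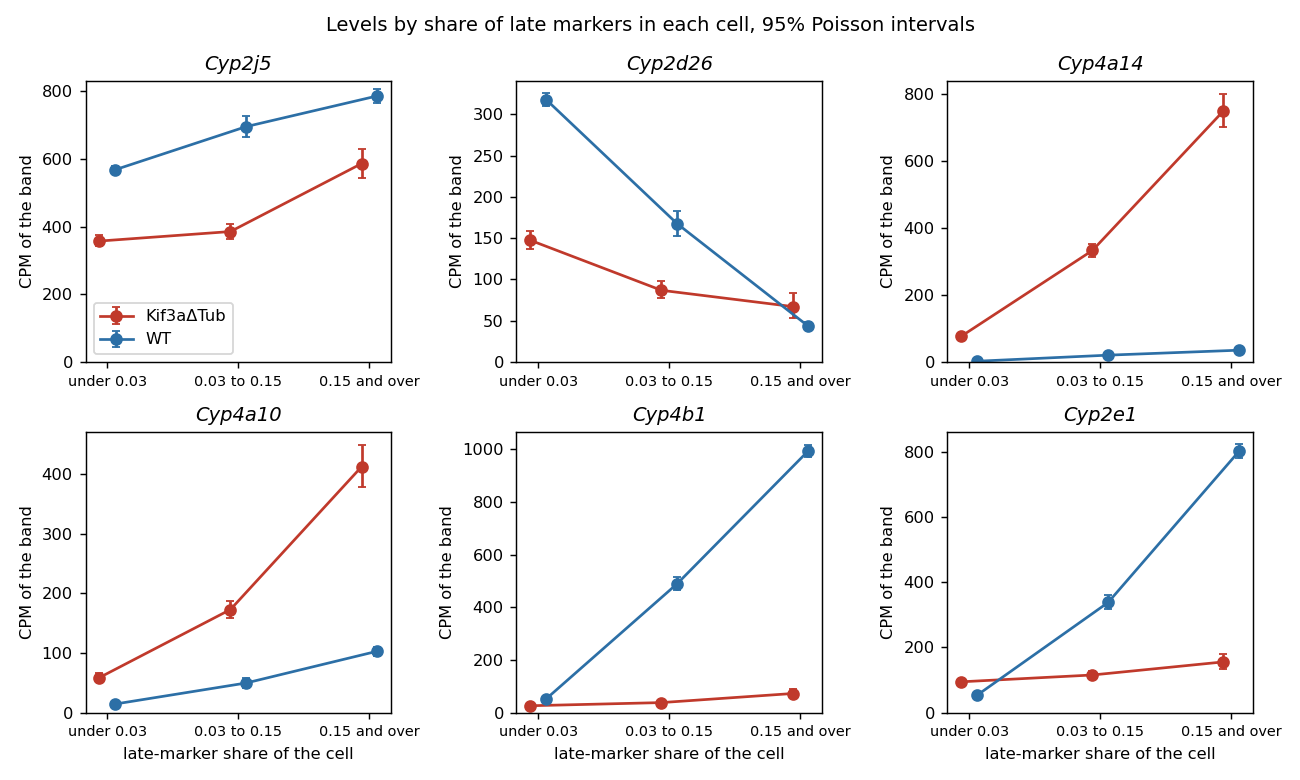
Level in CPM (y axis, from 0) of 6 members in 3 bands of proximal tubule-like cells by the late share of early and late marker UMIs (x axis), Kif3aΔTub in red and WT in blue, with 95% Poisson intervals. In Kif3aΔTub Cyp4a14 and Cyp4a10 climb to 750 and 412 CPM with the late share, in WT Cyp4b1 and Cyp2e1 climb to 993 and 802 CPM, and Cyp2j5 is lower in Kif3aΔTub in each band.

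Levels varied between the sub-clusters of each library, which are parts of the same library and not replicates. Cyp4a14, Cyp4b1 and Cyp2e1 had already been called in late cells, and no count of overlap over all genes is given here. Cyp4a14 lay between 417 and 748 CPM in the 4 late Kif3aΔTub sub-clusters and between 3.15 and 42.8 CPM in the 3 late WT sub-clusters, which did not overlap. Cyp4b1 lay between 12.1 and 64.1 CPM in late Kif3aΔTub and between 174 and 1000 CPM in late WT sub-clusters, again without overlap. Cyp2e1 lay between 0 and 172 CPM in Kif3aΔTub and between 170 and 787 CPM in WT, with overlap through the WT sub-cluster of 181 cells, whose median mitochondrial share was 6.04%. A Kif3aΔTub sub-cluster of 23 cells stood apart with a late over early marker ratio of 7.47, against 0.489 or less in WT, and with Cyp2j5 at 804, Cyp4a10 at 704 and Cyp2e1 at 0 CPM. Without these cells the late counts were 5 higher and 6 lower.

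**Figure D4:**
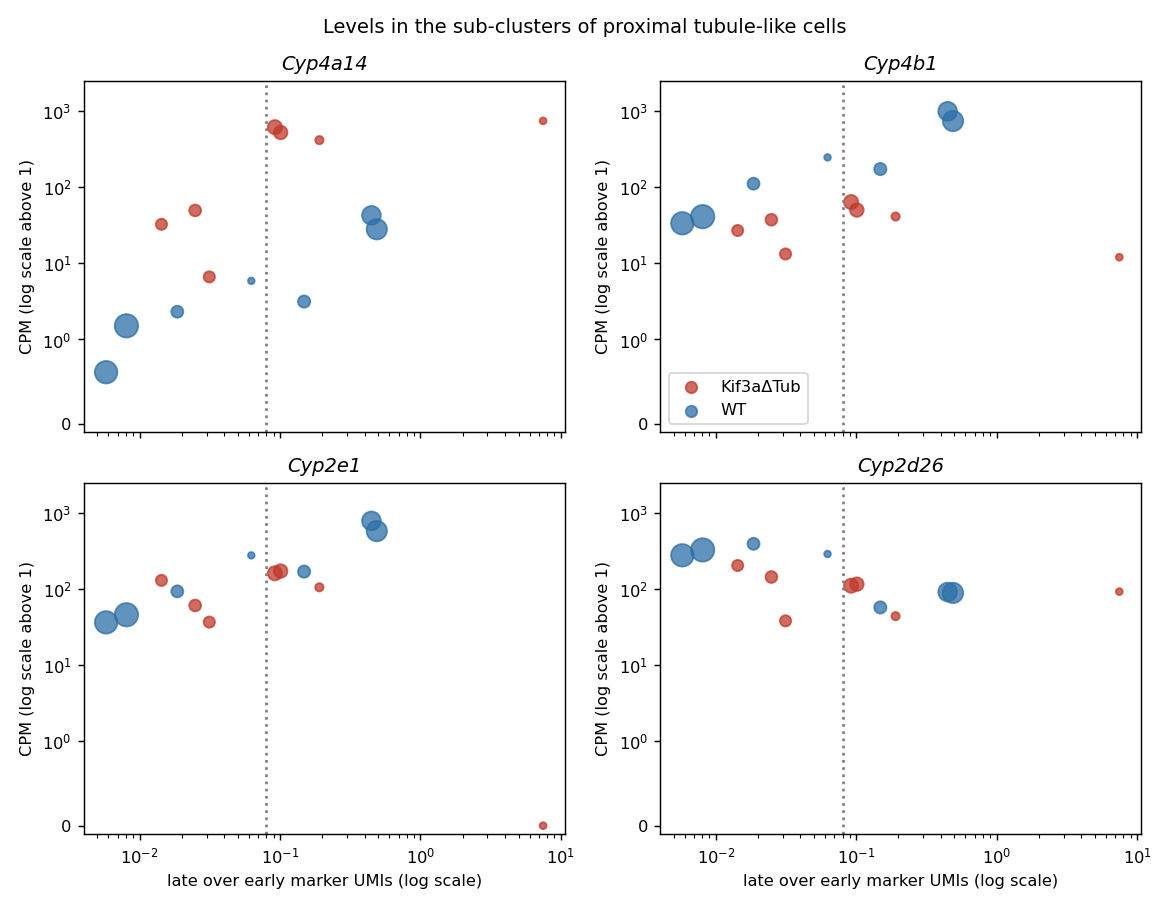
Level in CPM (y axis, log scale above 1) of 4 members in each early or late sub-cluster of proximal tubule-like cells (the unplaced one is left out) against its ratio of late to early marker UMIs (x axis, log scale), Kif3aΔTub in red and WT in blue. Point area grows with the number of cells, the dotted line at 0.08 parts early from late, and right of it Cyp4a14 is at 417 CPM or more in Kif3aΔTub and at 42.8 CPM or less in WT.

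Genes known to be switched on by PPAR-alpha, the fatty acid sensor that also drives Cyp4a10 and Cyp4a14, were counted from a list outside the family, and for this and the lists that follow the shares over all genes are those given above: 14.6% higher and 3.08% lower in early cells and 10.6% and 4.67% in late cells. In late cells 9 of 16 were higher in Kif3aΔTub and 1 was lower, with a median log2 ratio of 1.45, and in early cells 5 of 15 were higher and 1 lower, with a median of 0.40. The acyl-CoA thioesterase Acot1 stood at 160 CPM in Kif3aΔTub and 24.2 CPM in WT late cells. The lipid droplet gene Plin2 stood at 243 and 85.0 CPM and the fatty acid carrier Cd36, the exception, at 9.53 and 125 CPM. Ppara itself stood at 67.9 and 50.2 CPM.

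Some genes that depend on sex hormones in mouse proximal tubule were lower in Kif3aΔTub late cells, as were Cyp4b1, Cyp2e1 and Cyp2j13. In early cells Cyp2e1 was higher in Kif3aΔTub, with a log2 ratio of 0.61. Outside the family, in a list that overlaps the late markers, 4 of 6 were lower and 2 higher in Kif3aΔTub late cells. In early cells 4 of 4 were lower. Of the 6, Slco1a1, Slc7a13, Slc7a12 and Acsm3 were among the markers that placed cells as late. In early cells Slc7a13, with 0 UMIs in Kif3aΔTub and 20 in WT, and Acsm3, with 2 and 34, passed through WT alone. These counts therefore describe the genes that passed and not all such genes. The androgen-driven gene Kap stood at 2467 CPM in Kif3aΔTub and 42216 CPM in WT late cells, and in the band of highest late share at 6339 and 62425 CPM. Of its 10869 UMIs in late Kif3aΔTub cells, 6684 lay in the 23 cells that stood apart. The 3 other late Kif3aΔTub sub-clusters held Kap at 572 to 1920 CPM, against 13211 to 62107 CPM in late WT. How far those 23 cells made up the band value was not counted. Slco1a1, an anion carrier of the male kidney, stood at 1.36 CPM in Kif3aΔTub and 192 CPM in WT late cells. The prolactin receptor gene Prlr, higher in females, stood at 68.8 and 11.96 CPM in late and 12.7 and 35.8 CPM in early cells. Without the 23 cells above, which alone had Prlr at 812 CPM, the 3 other late Kif3aΔTub sub-clusters held it at 8.003 to 28.7 CPM, against 10.6 to 12.9 CPM in late WT. The other gene higher in late cells, Slc7a12, had 193 of its 199 late Kif3aΔTub UMIs in those 23 cells and stood at 0 to 3.59 CPM in the 3 other sub-clusters, against 1.26 to 4.60 CPM in late WT. The part of hormones in these differences was not tested.

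Other lists ran beside the family. Of 15 other enzymes of drug metabolism, 0 were higher and 9 lower in Kif3aΔTub late cells and 0 higher and 6 lower in early cells, with the glucuronosyltransferase Ugt2b37 at 17.2 and 389 CPM and the carboxylesterase Ces1f at 49.02 and 463 CPM in late cells. Of the redox partners and haem genes of the family, 1 of 9 was higher in early and in late cells, the haem oxygenase Hmox1 at 73.2 and 17.5 CPM and at 65.8 and 17.5 CPM, and Por stood at 80.9 and 90.8 CPM in early and at 103 and 125 CPM in late cells. Cyb5a, cytochrome b5, was the lower one of that list in late cells, at 1336 and 2815 CPM. Of 15 regulators with enough UMIs in late cells 3 were higher (Nr1i2, Ahr and Prlr), while the nuclear receptor Hnf4a stood at 224 and 328 CPM. Of 4 Ahr targets 3 were higher in late cells, among them Nqo1 at 87.1 and 16.5 CPM, while Tiparp was level at 27.2 and 27.9 CPM. In early cells 2 of the 4, Nqo1 and Aldh1a7, were higher and 0 lower by at least 2-fold. Tiparp had a log2 ratio of -0.41 (-0.68 to -0.16) there. Among the eicosanoid enzymes the epoxide hydrolase Ephx1 stood at 20.2 and 0.814 CPM in late cells, while Ephx2, which hydrolyses the epoxides of arachidonic acid, stood at 89.4 and 163 CPM. Of 5 P450 genes outside the families with enough UMIs in late cells 2 were higher, Cyp24a1 and Cyp27b1, which inactivate and activate vitamin D. They stood at 18.6 and 0.326 CPM and at 23.4 and 1.38 CPM. Both reached 20 UMIs through Kif3aΔTub alone, with 82 UMIs against 4 in WT and 103 against 17. The sterol demethylase gene Cyp51 was lower, at 66.5 and 144 CPM.

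Injury markers and mitochondrial RNA moved with genotype in the same cells. Of 10 injury genes, 10 in early and 8 in late cells had enough UMIs and were at least 2-fold higher in Kif3aΔTub, but most reached 20 UMIs through Kif3aΔTub alone and so had to differ. Spp1, with enough UMIs in each library, stood at 16642 and 1572 CPM in early and 14539 and 227 CPM in late cells. The median mitochondrial share was 15.6% in Kif3aΔTub and 30.6% in WT early cells and 24.4% and 22.8% in late cells. Their part in the differences above was not tested.

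Outside the proximal tubule a level counts here only where it stood at least 3 times above what free proximal tubule RNA would give. That spill was read from a list of 8 proximal tubule genes, whose sum in thick ascending limb-like cells was 1.13% of its proximal level in Kif3aΔTub and 1.37% in WT, and in endothelium-like cells 1.82% and 3.75%. Cyp2j5 stayed at that level, for example at 2.23 CPM in Kif3aΔTub and 7.80 CPM in WT distal convoluted tubule-like cells, 0.54 and 0.856 times its spill.

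Cyp2j6 was the leading member of thick ascending limb-, distal convoluted tubule- and principal-like cells in both libraries. In distal convoluted tubule-like cells it stood at 76.9 CPM (68.1 to 86.5) in Kif3aΔTub and 116 (99.2 to 135) in WT, in thick ascending limb-like cells at 36.2 and 65.3 CPM, in principal-like cells at 30.5 and 49.4 CPM and in intercalated-like cells at 32.3 and 49.9 CPM. It was lower in Kif3aΔTub in each of these 4 classes, with log2 ratios between -0.85 and -0.60, and higher in the proximal tubule. Cyp2j11 joined it in distal convoluted tubule-like cells, at 63.3 and 80.8 CPM, and stood at 3.45 and 27.0 CPM in principal-like cells. The 2 libraries filled these classes from different clusters. Most distal convoluted tubule-like cells came from cluster 18 in Kif3aΔTub (251 cells) and cluster 26 in WT (178 cells), and most principal-like cells from cluster 2 in Kif3aΔTub (890 cells) and cluster 16 in WT (155 cells). Within cluster 16 Cyp2j6 stood at 47.2 and 47.4 CPM and Cyp2j11 at 21.8 and 29.6 CPM. Within cluster 26, with 23 Kif3aΔTub cells, Cyp2j6 stood at 131 and 116 CPM and Cyp2j11 at 143 and 80.9 CPM. The principal- and distal convoluted tubule-like differences in these genes were thus not seen at that size inside clusters 16 and 26. Levels within single clusters are not given here for the thick ascending limb- and intercalated-like differences.

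Cyp2u1, Cyp2s1 and the Cyp4f genes spread over the same classes. Cyp2u1 stood at 11.2 and 28.9 CPM in Kif3aΔTub and WT thick ascending limb-like cells, at 18.9 and 44.0 CPM in distal convoluted tubule-like and at 15.0 and 30.1 CPM in principal-like cells, and inside cluster 16 at 12.7 and 32.2 CPM. Cyp2s1, an enzyme of epithelia outside the liver, stood at 26.5 and 8.16 CPM in thick ascending limb-like cells, a log2 ratio of 1.67 (1.10 to 2.35), but at 31.1 and 63.5 CPM in intercalated-like cells, a ratio of -1.03 (-1.36 to -0.70). The difference between these ratios was not tested, and no Cyp2s1 level within single clusters of these classes is given here. Cyp4f13 and Cyp4f16 lay between 6.95 and 12.5 CPM in the 4 distal classes of both libraries. Cyp4f17 and Cyp2r1 stood at 1.19 and 1.82 CPM in Kif3aΔTub principal-like cells, with 5 and 2 UMIs in WT.

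Intercalated-like cells held 2 members that other tubule classes nearly lacked. Cyp1a1, the inducible enzyme of polycyclic hydrocarbons and a target of the aryl hydrocarbon receptor, stood at 19.7 CPM (15.7 to 24.4) in Kif3aΔTub and 59.99 (51.8 to 69.2) in WT, a log2 ratio of -1.60 (-2.00 to -1.23). It had at most 2 UMIs in early or late proximal tubule-like cells of either library. Cyp3a13, the member of family 3 that was described, stood at 28.5 (23.6 to 34.1) and 12.6 (9.02 to 17.2) CPM, a ratio of 1.16 (0.65 to 1.73). The class joins cluster 14, led among others by Slc26a4, the anion exchanger of bicarbonate-secreting cells, with 133 Kif3aΔTub and 163 WT cells, and cluster 15, led by Aqp6 and Kit, with 315 and 122. Cyp1a1 stood at 50.1 and 95.9 CPM in cluster 14 and at 7.07 and 14.3 CPM in cluster 15, so its ratio within each was -0.93 (-1.38 to -0.51) and -1.02 (-1.98 to -0.06). Cyp3a13 lay mainly in cluster 15, at 38.7 and 25.8 CPM, a ratio of 0.57 (0.03 to 1.17), against 4.04 and 2.26 CPM in cluster 14. Both class ratios lay further from 0 than the ratios within either cluster, where that of Cyp3a13 in cluster 14 was 0.81 on 5 and 4 UMIs. Cyp4v3, a fatty acid hydroxylase, was the leading member of Kif3aΔTub intercalated-like cells, at 43.0 and 16.4 CPM, and was higher in cluster 14 (29.1 and 10.7 CPM) and in cluster 15 (48.8 and 23.7 CPM). Ahr stood at 17.3 and 10.4 CPM in the class and its targets Tiparp and Nqo1 at 15.9 and 13.6 CPM and at 10.5 and 5.05 CPM, the log2 ratio of Nqo1 being 1.02 (0.19 to 1.97).

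In endothelium-like cells Cyp4b1 did not share its low level of the late tubule in Kif3aΔTub. It stood at 347 CPM (320 to 375) in Kif3aΔTub and 247 (210 to 288) in WT, a log2 ratio of 0.49 (0.24 to 0.75), at 570 and 20.1 times its spill. Within cluster 11, led by Plat and Ehd3, it stood at 715 and 497 CPM, and within cluster 19 at 45.5 and 54.5 CPM. Cyp2d22 stood at 44.4 and 43.2 CPM in endothelium-like cells.

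Further members marked classes that came almost wholly from Kif3aΔTub, so they are levels in 1 library. In macrophage-like cells (670 in Kif3aΔTub, 4 in WT) Cyp4f18, known in mouse for inactivating the chemoattractant leukotriene B4, stood at 68.9 CPM (60.3 to 78.4) and Cyp4v3 at 19.8 CPM. In cluster 8, led by Lyz2 and class II genes such as H2-Aa, Cyp4f18 stood at 125 CPM (231 cells). In urothelium-like cells (83 cells) Cyp4f15 stood at 22.7 CPM and Cyp2s1 at 30.0 CPM. Cluster 10, an unnamed group of 877 Kif3aΔTub cells and 1 WT cell led by Lcn2, Fxyd4 and Aqp2, held Cyp2j6 at 23.7 CPM, Cyp4f16 at 11.5 CPM and Cyp2u1 at 8.35 CPM.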

How the data were processed

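The data were the 2 filtered UMI count matrices that the authors deposited, with their genes and barcodes. Values are raw counts per gene and barcode, made with Cell Ranger 3.1.0 per the file headers, while the submitters' processing notes name Cell Ranger 3.0.2, Seurat 3.1.1 and the build mm10. The annotation used for counting is not given in the sources used here. Kept cells held 79060495 UMIs in Kif3aΔTub and 42468386 in WT.

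A barcode was kept with 500 UMIs or more, 200 genes or more and a mitochondrial share under 50% (7236 of 7950 in Kif3aΔTub, 4371 of 6938 in WT), and 170 and 54 doublets called by Scrublet within scanpy were removed. At or over the mitochondrial limit stood 8.88% of Kif3aΔTub and 37.0% of WT barcodes. Cells of both libraries were clustered together in scanpy 1.11.5 (2000 variable genes per library without members, 30 components, 15 neighbours, Leiden resolution 1), giving 30 clusters. Clusters were named from fixed marker lists when over 60% and at least 3 of the markers passed 50 CPM, 20 UMIs and 2-fold over the median cluster, with a marker among the 10 leading genes. A cluster with at least 2 leading markers of another type stayed unnamed. Proximal tubule-like cells were sub-clustered per library (resolution 0.6). A sub-cluster was late where late marker UMIs reached 0.08 times the early ones and was left unplaced under 1000 CPM of both (29 Kif3aΔTub cells). The naming rule, the 0.08 limit and the removal of Dnase1 from the late markers were set after the data had been seen.

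UMIs were summed per class and library and given as CPM with exact Poisson intervals. A 3′ tag counts molecules, so levels were not scaled by length. Log2 ratios are Kif3aΔTub over WT with 0.5 UMIs added to each sum, with intervals from the exact conditional test of a pair of Poisson sums. The calling step was tested on simulated data. Members and lists were chosen with earlier results of these data known. Values are given for the 12 members with most UMIs in the proximal tubule, members at least 2-fold apart between libraries with at least 50 UMIs, members at least 3-fold apart between late and early cells, and members at least 3 times over the spill elsewhere. Cyp2a5, Cyp2c69, Cyp2d9, Cyp2j7, Cyp2r1 and others below these limits are given by UMIs to account for them. Gene positions and transcripts are GENCODE vM21 on GRCm38, the assembly of mm10, and promoters are RefSeq.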

Additional observations from a re-analysis of the deposited data

Results flagged for a closer look

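Cyp2e1 and Cyp2d26 had ratios of opposite sign in early and late proximal tubule-like cells. The log2 ratio of Kif3aΔTub to WT was 0.61 in early and -2.01 in late cells for Cyp2e1, and -1.43 in early and 0.22 in late cells for Cyp2d26. The difference between the early and the late ratio was not tested, since each rests on 1 library per genotype. Cyp2e1 kept both signs in each alternative (0.29 to 0.83 in early, -2.45 to -1.88 in late cells), and so did Cyp2d26 (-1.75 to -1.11 and 0.09 to 1.13). The middle band of late share is not among these alternatives. There Cyp2d26 was lower in Kif3aΔTub, with a log2 ratio of -0.95 (-1.16 to -0.73).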

How the results depend on the processing

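The number of members at least 2-fold higher in early cells was 6, and 3 with at least 100 UMIs per member. The counts of higher and lower members otherwise stayed within 1.5 times under each alternative run. The log2 ratio of the summed family in early cells, -0.62, was -0.91 with totals free of mitochondrial UMIs, -0.94 centred on the median gene, -0.31 with cells parted by markers per cell, -0.33 at resolution 2, -0.33 in cells under 25% mitochondrial UMIs, -0.34 in cells with at least 1000 UMIs, -0.45 with doublets kept and -0.32 in bands of late share. In late cells, -0.38, it was -0.47 centred, -0.63 by markers per cell, -0.52 without hormone-dependent markers, -0.35 at resolution 2, 0.032 under 25% mitochondrial UMIs, -0.24 with at least 1000 UMIs, -0.48 with doublets kept and -0.43 without the 23 cells that stood apart. The cause of these shifts was not tested. The bands and the removal of the 23 cells were chosen after the data had been seen. The alternatives placed 165 to 572 Kif3aΔTub cells as late when the bands are set aside. The median gene stood at a log2 ratio of 0.32 in early and 0.08 in late cells. Among the gene ratios followed, those of called members kept their sign. Cyp2j13 in early cells and Cyp2d26, Cyp2c23 and Cyp2j11 in late cells passed 2-fold in at least 1 alternative, as far as -1.36, 1.13, 1.47 and -1.08. Cyp2d22 in early cells, at 0.02, changed sign in 4 of 9 alternatives and Cyp2j5 in late cells in 1 of 10. No paired analysis was possible because each genotype has 1 library.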

Other observations

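Cluster 13, 64 cells found in the Kif3aΔTub library and led by Cfd, Fabp4 and Car3, had the highest level of a member in any class. Cyp2e1 stood at 1351 CPM (1283 to 1421) there, Cyp2f2, known as the naphthalene-activating enzyme of mouse airway cells, at 55.4 CPM (42.4 to 71.1), Cyp1b1 at 33.6 CPM (23.6 to 46.3) and Cyp2d22 at 21.8 CPM. The fat cell genes Adipoq and Plin1 stood at 1517 and 352 CPM, and the WT library had no cell of this cluster and no UMI of Cfd. The cluster was left unnamed because fat cell markers were not among the naming lists.

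Cyp1b1, which metabolises oestrogens and polycyclic hydrocarbons, was highest in cluster 23, at 151 CPM (116 to 193) in 63 Kif3aΔTub cells, with 1 cell in WT. That cluster was led by Tagln, Vim and Cp, held the matrix gene Tnc at 467 CPM and had no UMI of Col3a1. Over all barcodes Cyp1b1 had 152 UMIs in Kif3aΔTub and 0 in WT.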
